A study of Rattus norvegicus with 12 samples.

Results

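The genes of the cell division cycle were examined in ovarian RNA-seq libraries of rats with and without a model of polycystic ovary syndrome (PCOS). A list of 48 gene symbols was matched by name to the deposited expression table, where 46 of the 48 were found among 19730 genes. Ccnb2 and E2f1 were not analysed here. The 46 genes comprised 5 D cyclins and their kinases, 4 inhibitors of cyclin-dependent kinases (Cdk), 3 genes of cyclin E and Cdk2, 13 genes of S phase, when DNA is copied, and 21 genes of G2 and M phase, when the cell prepares to divide and divides.

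Expression was measured in 12 libraries, each from the ovary of 1 female wild-type Sprague Dawley rat at 15 postnatal weeks, with 4 rats in each of 3 groups. The control group was untreated and ate standard food. The PCOS group received letrozole, an inhibitor of the enzyme that converts androgen to estrogen, for 30 days together with a high-fat diet. The PCOS-MV group received the same letrozole and diet and then mogroside V (MV), a sweet triterpene glycoside of monk fruit, for 30 days. What the PCOS group was given during the MV treatment of the other group is not given in the sources used here. Letrozole-treated rats had been kept as models when their vaginal smears stayed in metestrus and diestrus, and the stage of each rat when its ovary was taken is not given in the sources used here. Letrozole and the high-fat diet were always given together, so their effects cannot be told apart.

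Progress through the cycle is driven by cyclins bound to Cdks. In G1, D cyclins with Cdk4 or Cdk6 and then cyclin E with Cdk2 phosphorylate the retinoblastoma protein, which frees E2F transcription factors to switch on the genes of DNA replication, and later cyclins A and B with Cdk1 carry the cell into mitosis. The inhibitors Cdkn1a (p21), Cdkn1b (p27) and Cdkn1c (p57) bind cyclin-Cdk complexes, whereas Cdkn2c (p18) binds Cdk4 and Cdk6. In the ovary, most dividing cells are granulosa cells of growing follicles, which depend on cyclin D2, and granulosa cells leave the cycle and gain p27 and p21 when they turn into luteal cells.

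Promoter sequence was available in RefSeq (GRCr8) for 33 of the 46 genes, and the 250 bases before each start were searched on both strands for 3 kinds of motif. These were the E2F site (TTTGGCGC, TTTCGCGC, TTTCCCGC or TTTGCCGC), the cell cycle homology region or CHR (TTTGAA or TTTAAA), which is bound by the complex that times G2 and M phase genes, and the CCAAT box (CCAAT). A CHR was present in 15 of 16 G2 and M phase promoters, the exception being Bub1b, and in 1 of 10 S phase promoters, that of Mcm2, against 25.4% of all 33469 promoters in the table and 24.1% of the 21842 promoters of protein-coding genes. Both a CHR and a CCAAT box were present in 13 of the 16 G2 and M phase promoters and in 9.04% of all promoters. An E2F site was present in 5 of 10 S phase promoters (Mcm2, Mcm5, Mcm6, Mcm7 and Tyms), in 1 of 16 G2 and M phase promoters (Cdk1) and in 1.73% of all promoters. Motifs of different kinds overlapped each other in 2 of the 33 promoters. The genes not in the table were Ccnd1, Ccnd2, Cdk6, Cdkn1c, Ccne2, Cdc6, Mcm4, Rrm2, Foxm1, Ccna2, Aurkb, Ube2c and Tpx2. The last 150 bases before the start are shown, 5′ to 3′ and with the motifs in capitals, for Cdkn1a and Cdkn1b, which changed in both main comparisons below, for 4 G2 and M phase genes (Cdk1, Cenpe, Ccnb1 and Top2a) that carry the CHR and the CCAAT box, and for 2 S phase genes (Mcm5 and Mcm6) that carry E2F sites. The last 6 were chosen after the values were seen.
Cdkn1a (chr20:7150782-7150931, plus strand): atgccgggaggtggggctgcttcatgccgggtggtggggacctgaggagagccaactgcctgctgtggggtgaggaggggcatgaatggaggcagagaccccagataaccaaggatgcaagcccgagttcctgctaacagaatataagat
Cdkn1b (chr4:169491354-169491503, plus strand): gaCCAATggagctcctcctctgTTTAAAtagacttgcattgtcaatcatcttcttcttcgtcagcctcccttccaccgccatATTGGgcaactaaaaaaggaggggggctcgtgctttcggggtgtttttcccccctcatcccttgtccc
Cdk1 (chr20:19265143-19265292, plus strand): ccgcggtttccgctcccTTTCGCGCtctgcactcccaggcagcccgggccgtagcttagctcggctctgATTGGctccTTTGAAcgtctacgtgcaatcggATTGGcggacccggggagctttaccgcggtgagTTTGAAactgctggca
Cenpe (chr2:226310907-226311056, plus strand): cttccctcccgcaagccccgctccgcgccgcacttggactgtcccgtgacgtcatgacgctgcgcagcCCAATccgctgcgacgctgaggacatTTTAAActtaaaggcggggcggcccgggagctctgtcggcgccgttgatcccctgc
Ccnb1 (chr2:33655226-33655375, minus strand): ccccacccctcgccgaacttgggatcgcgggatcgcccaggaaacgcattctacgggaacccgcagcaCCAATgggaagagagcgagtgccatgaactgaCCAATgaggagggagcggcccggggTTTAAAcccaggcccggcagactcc
Top2a (chr10:84473094-84473243, minus strand): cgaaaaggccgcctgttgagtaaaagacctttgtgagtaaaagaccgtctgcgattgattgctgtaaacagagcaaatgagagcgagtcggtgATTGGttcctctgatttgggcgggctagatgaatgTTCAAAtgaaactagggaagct
Mcm5 (chr19:13488663-13488812, plus strand): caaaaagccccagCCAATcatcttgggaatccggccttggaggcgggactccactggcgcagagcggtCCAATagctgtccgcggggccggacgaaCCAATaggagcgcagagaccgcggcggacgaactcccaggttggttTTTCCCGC
Mcm6 (chr13:42404353-42404502, minus strand): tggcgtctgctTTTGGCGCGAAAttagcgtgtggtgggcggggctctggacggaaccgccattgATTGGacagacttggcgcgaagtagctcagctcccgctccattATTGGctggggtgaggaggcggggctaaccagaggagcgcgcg
These letters describe the sequence and do not show that a factor was bound.

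The libraries had similar totals. Values are FPKM (fragments mapped to a gene, scaled by its length and by all fragments mapped in the library), which summed to between 339830 and 373758 per library, and 17576 to 18247 genes were above 0. The read number is not given, and the steps between the lowest values put the depth of the libraries at 0.916 to 1.12 times that of Control replicate 1. Markers of granulosa, luteal and theca cells and of oocytes were present in every library. Control replicate 3 stood apart. Its markers of surface and other epithelium summed to 212 FPKM against 20.9 to 36.2 FPKM in the other control libraries and at most 74.0 FPKM in the treated ones. Its ciliated epithelium markers summed to 21.3 FPKM against 2.51 to 4.83 FPKM in the other control libraries and at most 3.84 FPKM in the treated ones. Its level of Epcam, an epithelial adhesion protein, was 32.3 FPKM against 1.195 to 2.90 FPKM in the other control libraries. Its smooth muscle markers summed to 888 FPKM against 328 to 482 FPKM in the other control libraries. Its sums of granulosa, luteal, theca cell and oocyte markers were the lowest of the control group. Those of endothelial and leukocyte markers lay within the range of the other control libraries. Counts are therefore given with and without it.

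**Figure D1:**
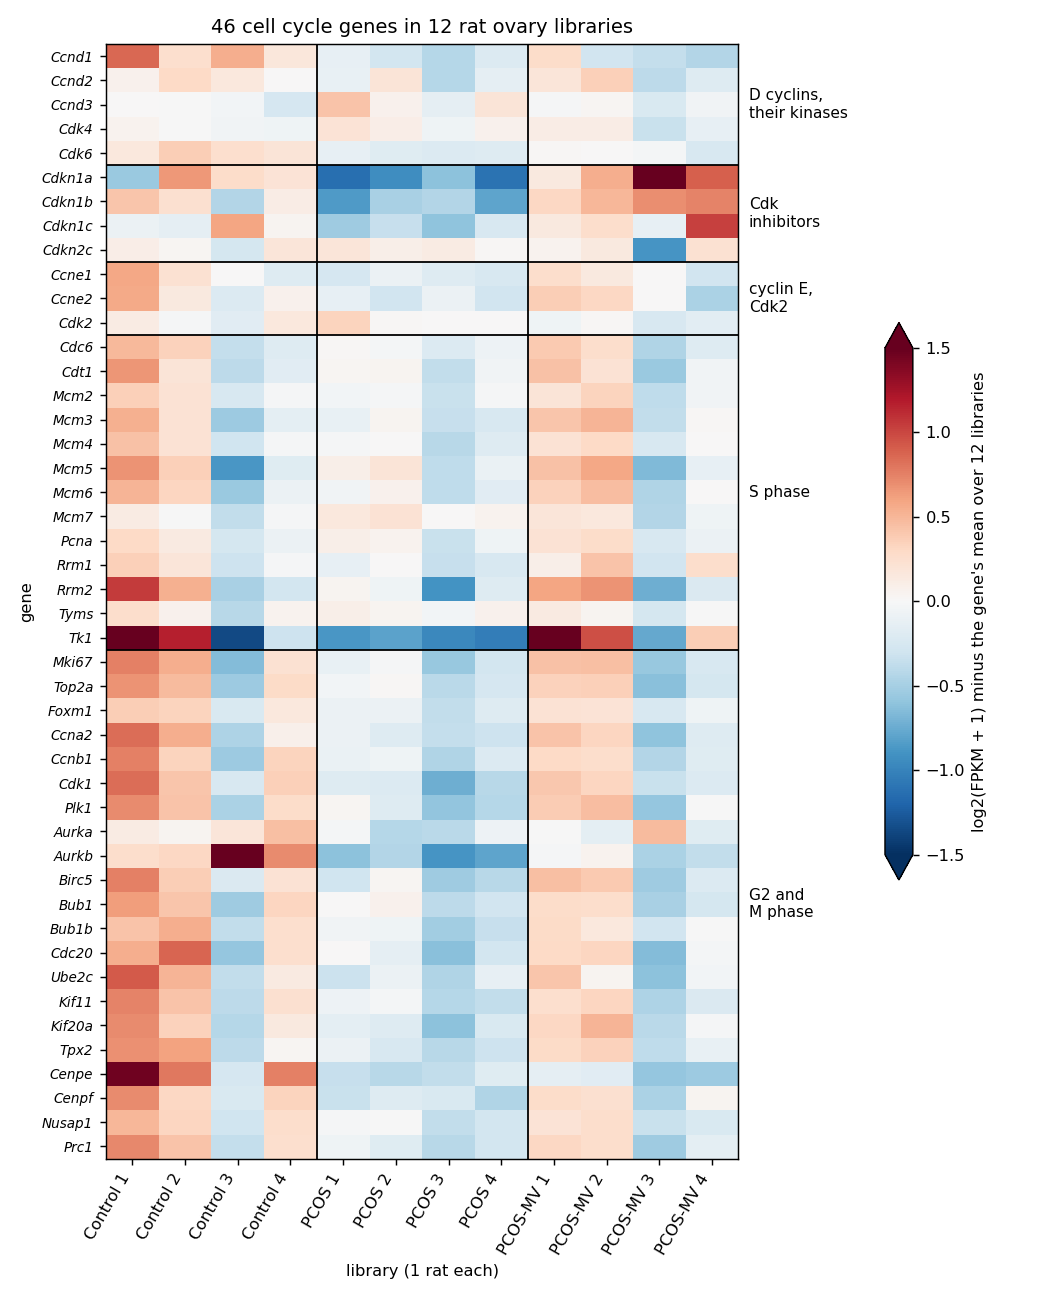
Heatmap of the 46 cell cycle genes (vertical axis, ordered by role) in the 12 libraries (horizontal axis), coloured by log2(FPKM + 1) minus the gene's mean over the 12 libraries, from blue (lower) to red (higher). Most S phase and G2 and M phase genes were highest in Control replicate 1 and low in Control replicate 3, PCOS replicate 3 and PCOS-MV replicate 3, whereas Cdkn1a and Cdkn1b followed the groups.

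The first comparison, PCOS against control, asks how the model changed the ovary. The limma test was run on log2(FPKM + 1) over 13430 genes whose mean reached 1 FPKM, which left out Cdc6, and a gene with a Benjamini-Hochberg adjusted p under 0.05 was called a differentially expressed gene (DEG). Fold changes are on this scale, and those of weakly expressed genes are understated by the added 1. Of the 45 cell cycle genes tested, 9 were lower in the PCOS group (Ccnd1, Cdk6, Cdkn1a, Cdkn1b, Cdk1, Aurka, Aurkb, Cenpe and Cenpf) and 0 were higher. An unadjusted limma p under 0.05 was found for 13 of the 45 and for 5285 of all 13430 genes. Among all genes tested, 15.6% were lower and 11.9% were higher, so the share of cell cycle genes that fell was not far from that of all genes. The median log2 fold change was -0.43 over the cell cycle genes and -0.03 over all genes. Without Control replicate 3, 26 of the 45 were lower, against 16.9% of all genes, and the median was -0.61, while without any 1 of the other 7 libraries 3 to 5 were lower. Control replicate 3 was the lowest control library for 32 of the 34 S phase and G2 and M phase genes. A larger count without it follows from those low values and is no independent result. The part of the epithelial and ciliated markers of Control replicate 3 in the difference between these counts was not tested. In RNA of a whole ovary, fewer cells of a type and less RNA per cell cannot be told apart.

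Cyclin D1 and Cdk6 were lower in the PCOS group. Ccnd1, which encodes cyclin D1, was at 18.7, 11.9, 14.8 and 11.2 FPKM in controls (replicates 1 to 4, the order used throughout), 8.93, 7.95, 7.05 and 8.36 FPKM in PCOS rats and 12.1, 7.90, 7.42 and 7.002 FPKM in PCOS-MV rats. All PCOS values lay below all control values, and 3 of the 4 PCOS-MV values lay in or below the PCOS range. The log2 fold change of PCOS against control was -0.72 ± 0.15 (SE), 0.607 times the control value (limma adjusted p = 0.00873, exact permutation p = 0.0286, two-sided, the smallest that 4 libraries against 4 can give). Cdk6, a partner kinase of the D cyclins, was at 10.4, 12.2, 11.1 and 10.7 FPKM in controls, 8.34, 8.02, 7.83 and 7.95 FPKM in PCOS rats and 9.31, 9.22, 8.98 and 7.66 FPKM in PCOS-MV rats. It fell by 0.42 ± 0.07 on the log2 scale from control to PCOS with no overlap of the groups (limma adjusted p = 0.00284). Both calls held in all 8 fits with 1 library omitted.

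The more abundant members of the D cyclin system did not pass the test. Ccnd2, the D cyclin of granulosa cells, was at 69.05, 81.4, 73.8 and 66.6 FPKM in controls, 61.3, 75.8, 48.98 and 59.9 FPKM in PCOS rats and 75.004, 85.1, 49.95 and 57.4 FPKM in PCOS-MV rats. Its groups overlapped, with a log2 fold change of -0.25 in PCOS against control (95% interval -0.55 to 0.04, limma adjusted p = 0.188). Cdk4, the most abundant kinase of the list, was at 91.8, 87.9, 84.8 and 84.1 FPKM in controls, 102, 94.5, 84.6 and 92.5 FPKM in PCOS rats and 95.7, 95.04, 70.05 and 80.7 FPKM in PCOS-MV rats, where a log2 fold change of 0.10 in PCOS against control had a 95% interval of -0.07 to 0.27. The end of Cdk4 overlaps the gene Tspan31 on the opposite strand by 168 bases, and the strand setting of the counting is not given, so reads in that stretch could come from either gene. Ccnd3 averaged 23.5 ± 1.98 FPKM (SD, n = 4) in controls, 27.5 ± 4.77 FPKM in PCOS rats and 23.5 ± 1.79 FPKM in PCOS-MV rats and was not called in any comparison.

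Of the 4 inhibitors, Cdkn1a and Cdkn1b fell in the PCOS group. Cdkn1a (ENSRNOG00000000521), the p21 inhibitor that p53 and other stress signals induce, was at 27.1, 63.9, 49.1 and 46.7 FPKM in controls, 17.9, 20.6, 26.02 and 18.1 FPKM in PCOS rats and 44.7, 59.4, 125 and 75.6 FPKM in PCOS-MV rats. Every PCOS library lay below every library of the other groups. Its log2 fold change in PCOS against control was -1.09 ± 0.24 (SE), 0.469 times the control value (limma adjusted p = 0.0102, exact permutation p = 0.0286), and the call held in all 8 fits with 1 library omitted. Cdkn1b (ENSRNOG00000007249), which encodes p27, was at 124, 110.0, 67.9 and 99.9 FPKM in controls, 50.98, 65.9, 68.03 and 53.1 FPKM in PCOS rats and 115, 132, 151 and 156 FPKM in PCOS-MV rats. Control replicate 3 lay just below the highest PCOS library and the other 3 control libraries above all PCOS libraries. The log2 fold change was -0.72 ± 0.19 (limma adjusted p = 0.0203, exact permutation p = 0.0571), held in 5 of the 8 fits with 1 library omitted, and was -0.90 ± 0.13 without Control replicate 3. The call was lost without Control replicate 2, PCOS replicate 1 or PCOS replicate 4, where the adjusted p reached at most 0.0601.

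The other inhibitors gave less. Cdkn1c, an imprinted gene that encodes p57, was low, at 2.23, 2.12, 4.14 and 2.52 FPKM in controls, 1.36, 1.68, 1.25 and 1.91 FPKM in PCOS rats and 2.80, 3.12, 2.14 and 5.95 FPKM in PCOS-MV rats. The PCOS libraries lay below all control libraries, but the log2 fold change of -0.53 ± 0.18 missed the threshold (limma adjusted p = 0.0526). Cdkn2c averaged 9.20 ± 1.30 FPKM (SD, n = 4) in controls, 9.80 ± 0.501 FPKM in PCOS rats and 8.65 ± 2.88 FPKM in PCOS-MV rats and was not called in any comparison.

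**Figure D2:**
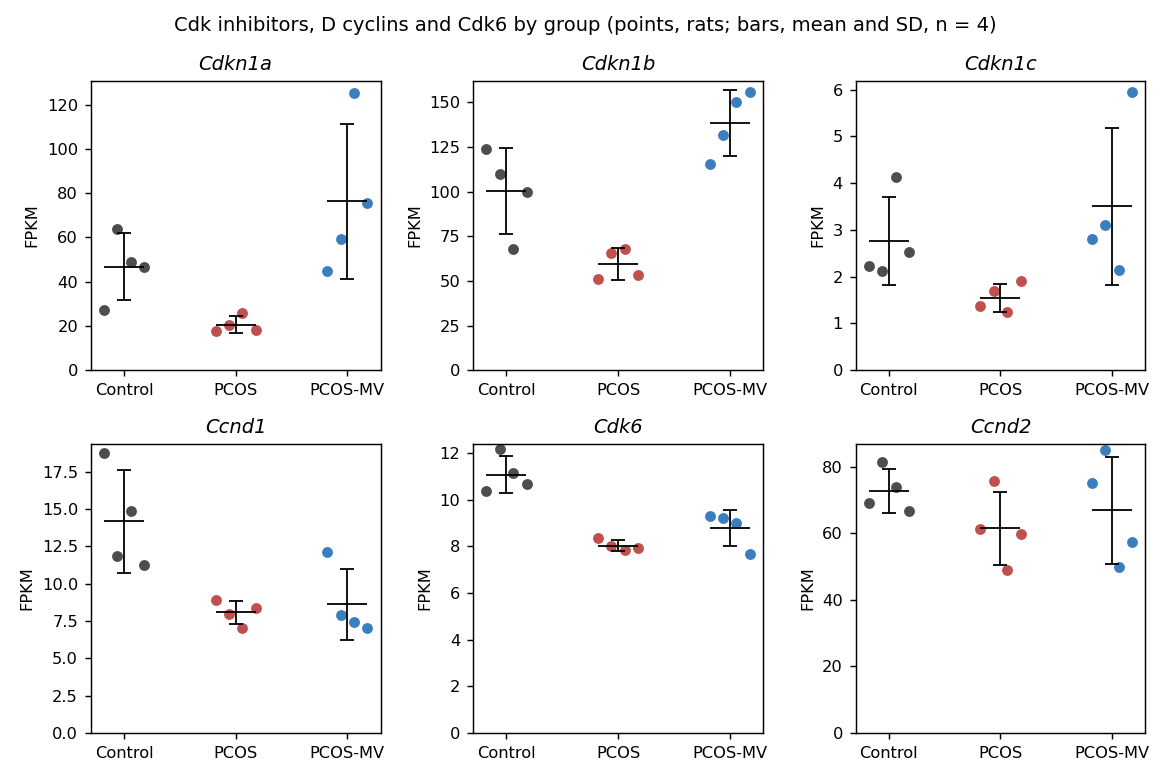
FPKM (vertical axes, from 0) of Cdkn1a, Cdkn1b, Cdkn1c, Ccnd1, Cdk6 and Ccnd2 in the 3 groups (horizontal axes), with 1 point per rat in the order of replicates and bars for the mean and SD (n = 4). Cdkn1a and Cdkn1b are lowest in the PCOS group and highest in the PCOS-MV group, whereas Ccnd1 and Cdk6 are highest in the control group.

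At the start of S phase, 0 of 3 cyclin E and Cdk2 genes and 0 of 12 S phase genes were called by limma in PCOS against control. Among all genes tested, 15.6% were called lower and 11.9% higher. An unadjusted limma p under 0.05 was found for 0 of these cyclin E, Cdk2 and S phase genes and for 5285 of all 13430 genes. Ccne2, cyclin E2, averaged 2.06 ± 0.704 FPKM (SD, n = 4) in controls, 1.37 ± 0.180 FPKM in PCOS rats and 1.89 ± 0.717 FPKM in PCOS-MV rats, and shares 521 bases with Ints8 on the opposite strand. Its control libraries were at 3.04, 2.002, 1.36 and 1.85 FPKM, its PCOS libraries at 1.5001, 1.22, 1.56 and 1.22 FPKM and its PCOS-MV libraries at 2.52, 2.37, 1.72 and 0.952 FPKM. Cdk2 was at 9.62, 8.70, 7.69 and 9.92 FPKM in controls, 11.3, 8.87, 8.82 and 8.83 FPKM in PCOS rats and 8.33, 8.87, 7.29 and 7.75 FPKM in PCOS-MV rats. The groups overlapped for both genes.

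The most abundant S phase genes did not pass the test. Pcna, the sliding clamp of DNA polymerase, was at 50.6, 44.9, 33.8 and 38.5 FPKM in controls, 43.5, 42.5, 32.2 and 38.8 FPKM in PCOS rats and 47.5, 49.6, 34.3 and 38.2 FPKM in PCOS-MV rats. Tyms, which makes thymidylate for DNA synthesis, was at 23.2, 20.2, 14.2 and 19.9 FPKM in controls, 20.4, 19.8, 18.6 and 20.1 FPKM in PCOS rats and 21.2, 19.7, 15.9 and 19.2 FPKM in PCOS-MV rats. The 95% intervals of the log2 fold change in PCOS against control were -0.41 to 0.23 for Pcna and -0.26 to 0.35 for Tyms, and the groups overlapped. The 6 members Mcm2 to Mcm7, the subunits of the replicative helicase, had mean levels of 7.36 to 17.3 FPKM over the 12 libraries and log2 fold changes from -0.24 (Mcm4) to 0.18 (Mcm7). Rrm1 and Rrm2, the subunits of ribonucleotide reductase, which makes deoxyribonucleotides, had log2 fold changes of -0.23 and -0.48 and were not called.

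Tk1, thymidine kinase of the salvage route to DNA precursors, varied more between rats of the control and PCOS-MV groups than the other S phase genes. It was at 55.2, 29.97, 4.40 and 10.2 FPKM in controls, 6.57, 6.93, 6.10 and 5.73 FPKM in PCOS rats and 40.3, 26.1, 7.14 and 16.8 FPKM in PCOS-MV rats. The PCOS libraries were tightly grouped, the control libraries spanned from below to far above them, and the PCOS-MV libraries all lay above them. The log2 fold change in PCOS against control was -1.30 ± 0.63 (limma adjusted p = 0.164) and, without Control replicate 3, -1.88 ± 0.46 (limma adjusted p = 0.0182). Control replicate 3 was the lowest control library of Tk1 and lay below all PCOS libraries. The larger change without it follows from that low value and is no independent result.

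All 21 G2 and M phase genes had a negative log2 fold change in PCOS against control, from -1.57 (Aurkb) to -0.34 (Foxm1) with a median of -0.49. Of the 21, 5 were called, while 15.6% of all genes were called lower. Among all 13430 genes tested, 7338 had a negative log2 fold change. The G2 and M phase genes share libraries and rose and fell together in them, so the count of signs is not a count of independent results. Cdk1, the kinase that drives entry into mitosis, was at 22.7, 16.6, 10.2 and 15.9 FPKM in controls, 10.5, 10.4, 6.93 and 8.90 FPKM in PCOS rats and 16.5, 15.6, 9.50 and 10.5 FPKM in PCOS-MV rats. The groups overlapped only through Control replicate 3, which lay among the PCOS libraries. The log2 fold change was -0.73 ± 0.22 with all libraries (limma adjusted p = 0.0378) and -0.93 ± 0.17 without Control replicate 3 (limma adjusted p = 0.0052), while without any 1 of the other 7 libraries the call was lost (adjusted p at most 0.0961).

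The Aurora kinases fell as well. Aurkb (ENSRNOG00000005659), the catalytic subunit of the chromosomal passenger complex, was at 6.57, 6.82, 28.8 and 9.29 FPKM in controls, 3.09, 3.64, 2.41 and 2.62 FPKM in PCOS rats and 5.19, 5.51, 3.52 and 3.87 FPKM in PCOS-MV rats. Control replicate 3 was the highest of the 12 libraries, and every control library lay above every PCOS library. The log2 fold change was -1.57 ± 0.40 (limma adjusted p = 0.0198, exact permutation p = 0.0286) and -1.11 ± 0.15 without Control replicate 3 (limma adjusted p = 0.00127), so the call did not rest on that library. It was lost without PCOS replicate 3 or PCOS replicate 4 (adjusted p at most 0.0536). Aurka, which acts at the spindle poles, was at 5.48, 5.10, 5.77 and 7.12 FPKM in controls, 4.83, 3.44, 3.51 and 4.63 FPKM in PCOS rats and 4.94, 4.36, 7.30 and 4.27 FPKM in PCOS-MV rats. Its log2 fold change of -0.43 ± 0.13 (limma adjusted p = 0.0388) was -0.44 ± 0.15 without Control replicate 3 (limma adjusted p = 0.0584), and the call held in 2 of the 8 fits with 1 library omitted.

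Among the kinetochore proteins, Cenpe, the motor that moves chromosomes to the spindle equator, was at 10.7, 6.32, 2.55 and 6.12 FPKM in controls, 2.32, 2.16, 2.26 and 2.72 FPKM in PCOS rats and 2.86, 2.76, 1.84 and 1.90 FPKM in PCOS-MV rats. Control replicate 1 was highest, Control replicate 3 lay within the PCOS range, and the ranges of the PCOS and PCOS-MV libraries overlapped. Its log2 fold change in PCOS against control was -1.02 ± 0.31 (limma adjusted p = 0.0379), 0.493 times the control value, and -1.33 ± 0.18 without Control replicate 3. Cenpf, a large kinetochore protein of G2 and M phase, was at 5.06, 3.61, 2.15 and 3.66 FPKM in controls, 1.94, 2.23, 2.16 and 1.71 FPKM in PCOS rats and 3.49, 3.37, 1.66 and 2.82 FPKM in PCOS-MV rats, with a log2 fold change of -0.58 ± 0.18 (limma adjusted p = 0.0457). For both genes the call was lost when any 1 library other than Control replicate 3 was left out (adjusted p at most 0.0871 for Cenpe and 0.114 for Cenpf).

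Top2a, the topoisomerase that untangles sister chromatids, was the most abundant G2 and M phase gene, at 24.2, 21.1, 9.81 and 18.3 FPKM in controls, 14.4, 15.1, 10.9 and 12.3 FPKM in PCOS rats and 19.1, 19.2, 9.23 and 12.2 FPKM in PCOS-MV rats. Control replicate 3 was the lowest control library and lay below all PCOS libraries, and the log2 fold change of -0.39 ± 0.25 was not called (limma adjusted p = 0.271). Mki67, the nuclear protein Ki-67 used to mark dividing cells and named here after its values were seen, was at 13.3, 11.3, 4.37 and 8.86 FPKM in controls, 6.79, 7.33, 4.71 and 5.98 FPKM in PCOS rats and 10.4, 10.5, 4.68 and 6.17 FPKM in PCOS-MV rats. It was not called either (log2 fold change -0.46 ± 0.28, limma adjusted p = 0.261). Without Control replicate 3 the log2 fold change was -0.65 ± 0.13 for Top2a (limma adjusted p = 0.00893) and -0.75 ± 0.17 for Mki67 (limma adjusted p = 0.012). In that fit 20 of the 21 G2 and M phase genes were called lower, the exception being Aurka, with a median log2 fold change of -0.70. Called lower as well were 1 of 12 S phase genes (Tk1), 1 of 3 cyclin E and Cdk2 genes (Ccne2) and 16.9% of all genes. With all libraries 5 of the 21 had been called. Control replicate 3 was the lowest control library for 19 of the 21, and these genes moved together, so the 20 calls are not independent results. The difference between the roles was not tested. Ccna2 and Kif20a were among the 20, and they share 6334 bases with Exosc9 and 1910 bases with Cdc23 on the opposite strand, so that their reads could not be fully told from those of their neighbours.

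**Figure D3:**
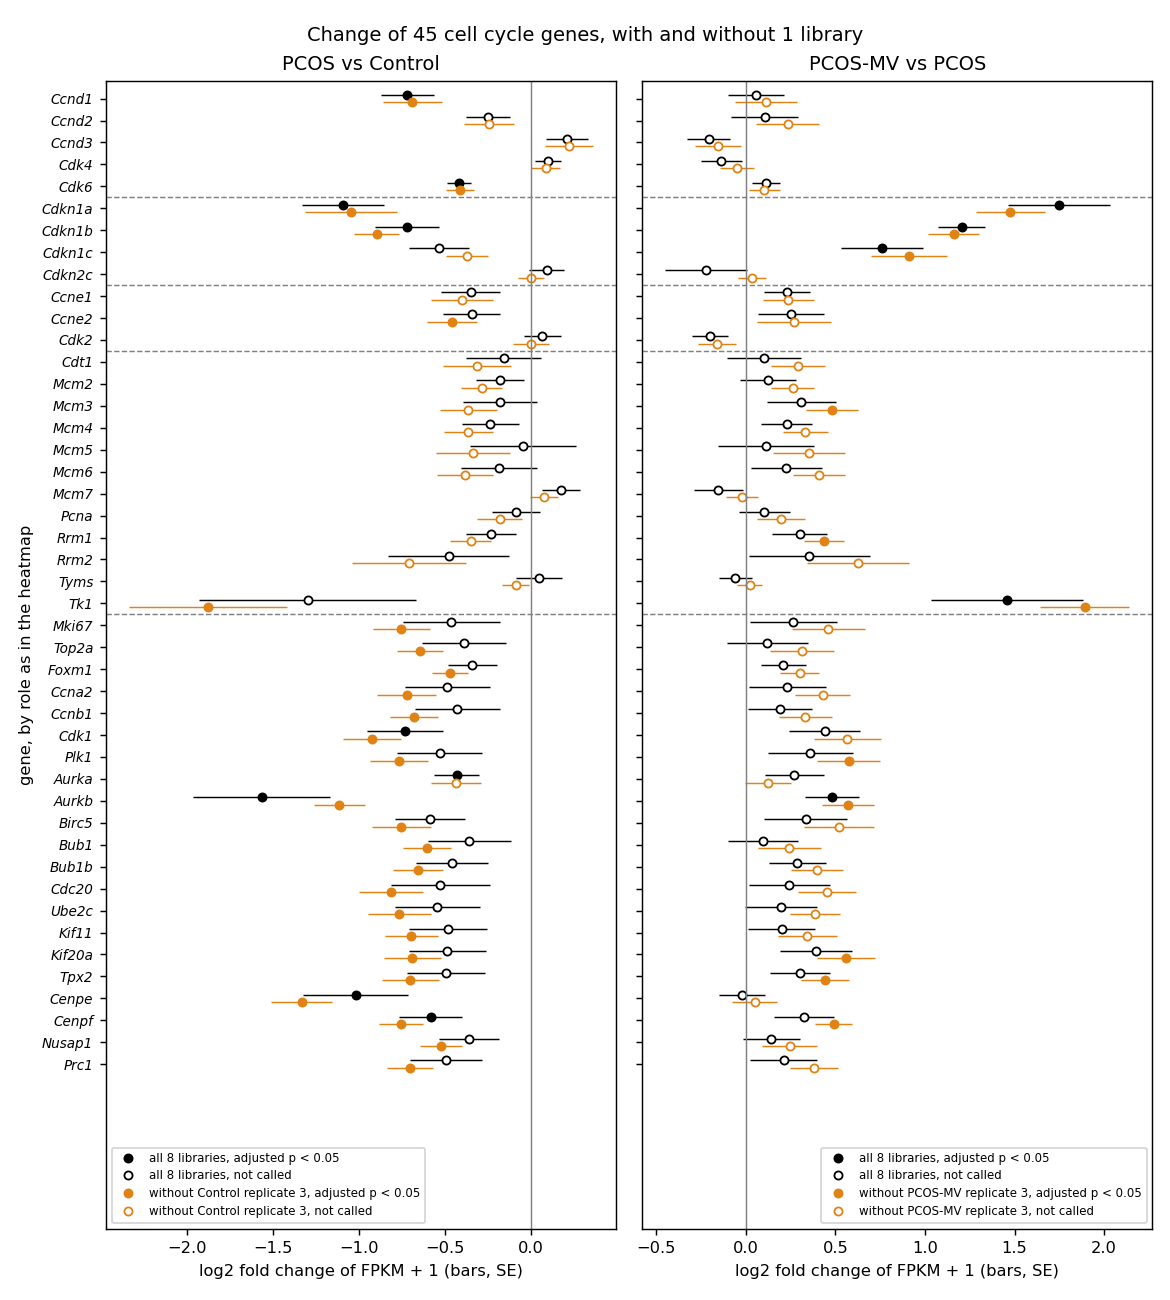
Log2 fold change of FPKM + 1 (horizontal axes, bars are SE) of the 45 genes tested (vertical axis) in PCOS against control and in PCOS-MV against PCOS, with all 8 libraries (black) and without 1 library (orange), filled where the limma adjusted p was under 0.05. Without Control replicate 3 the number of genes lower in PCOS went from 9 to 26, and without PCOS-MV replicate 3 the number higher in PCOS-MV went from 5 to 11. Each library left out was the lowest of its group for most S phase and G2 and M phase genes. The larger counts are no independent results.

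The S phase and the G2 and M phase genes moved together from rat to rat within each group. Of these 34 genes, 30 had their highest control value in Control replicate 1 and 32 had their lowest control value in Control replicate 3. In the PCOS group 30 of the 34 were lowest in PCOS replicate 3, and in the PCOS-MV group 33 were lowest in PCOS-MV replicate 3. The exceptions to a low value in Control replicate 3 were Aurkb and Aurka, where another control library was lowest. The mean of log2(FPKM + 1) over the 34 genes ran from 2.70 to 3.69 over the control libraries, 2.60 to 2.95 over the PCOS libraries and 2.60 to 3.37 over the PCOS-MV libraries, so the 3 groups overlapped.

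For the genes of S phase, those of G2 and M phase and the inhibitors, the spread between rats was smallest in the PCOS group. For G2 and M phase genes, the highest library of a group was 2.52 times the lowest in the control group (median over genes), 1.40 times in the PCOS group and 1.95 times in the PCOS-MV group. For S phase genes the ratios were 2.24, 1.37 and 1.99. The inhibitors had ratios of 1.89, 1.39 and 2.61, and the D cyclins and their kinases 1.21, 1.27 and 1.37. The mean of log2(FPKM + 1) over the 4 inhibitors was 4.23 to 4.45 in controls, 3.67 to 3.87 in PCOS rats and 4.42 to 4.98 in PCOS-MV rats, with no PCOS library in the range of either other group, while the control and PCOS-MV ranges overlapped. The scores are descriptions and were given no test.

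**Figure D4:**
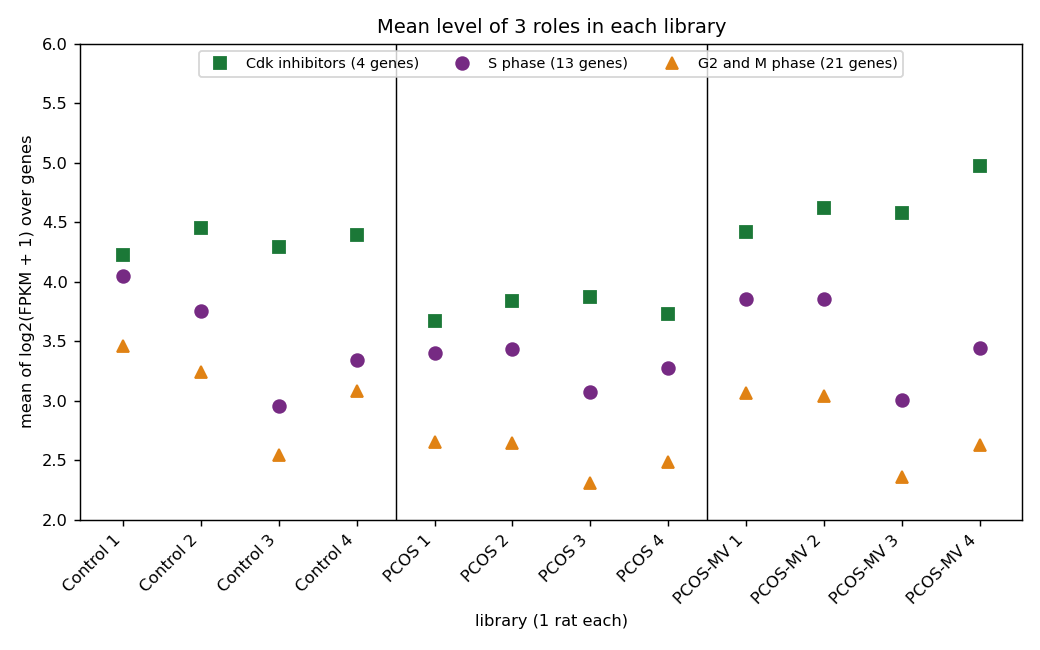
Mean of log2(FPKM + 1) over the genes of 3 roles (vertical axis, starting at 2) in each of the 12 libraries (horizontal axis), with squares for the 4 Cdk inhibitors, circles for the 13 S phase genes and triangles for the 21 G2 and M phase genes. The inhibitors were lowest in all 4 PCOS libraries (3.67 to 3.87), whereas the S phase and G2 and M phase means were low in replicate 3 of each group.

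The second comparison, PCOS-MV against PCOS, asks what changed after mogroside V. It shares the PCOS libraries with the first comparison, so the values of the first and second comparison are not independent and are given side by side only. Of the 45 cell cycle genes, 5 were higher in the PCOS-MV group (Cdkn1a, Cdkn1b, Cdkn1c, Tk1 and Aurkb) and 0 were lower by limma. An unadjusted limma p under 0.05 was found for 5 of the 45 and for 5173 of all 13430 genes. Among all genes tested, 14.3% were higher and 11.4% lower, so the share of cell cycle genes called was no larger than that of all genes. The median log2 fold change was 0.23 over the cell cycle genes and 0.03 over all genes. Of the 5 calls, 3 were inhibitors, out of 4 tested. Without PCOS-MV replicate 3, 11 of the 45 were higher, against 14.4% of all genes. That library was the lowest of its group for 33 of the 34 S phase and G2 and M phase genes, so a larger count without it follows from those low values and is no independent result. Without any 1 of the other 7 libraries 2 to 4 were higher, with 2 without PCOS replicate 1, 3 or 4 or PCOS-MV replicate 1 or 2. The 6 genes added without PCOS-MV replicate 3 were Mcm3, Rrm1, Plk1, Kif20a, Tpx2 and Cenpf.

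Of the 4 inhibitors, Cdkn1a, Cdkn1b and Cdkn1c rose, and Cdkn2c, with a log2 fold change of -0.22, was not called. Cdkn1a rose in all 4 PCOS-MV libraries, which spanned 44.7 to 125 FPKM against 17.9 to 26.0 FPKM in the PCOS group, with a log2 fold change of 1.75 ± 0.28, 3.36 times the PCOS value (limma adjusted p = 0.00313, exact permutation p = 0.0286). Cdkn1b rose by 1.20 ± 0.13 on the log2 scale, 2.30 times the PCOS value, with every PCOS-MV library above every PCOS library (limma adjusted p = 0.000561). Both calls held in all 8 fits with 1 library omitted, with log2 fold changes of 1.48 to 1.97 for Cdkn1a and 1.13 to 1.29 for Cdkn1b. Cdkn1c rose by 0.76 ± 0.23 (limma adjusted p = 0.0398), and PCOS-MV replicate 4 was its highest library. That call held in 2 of 8 fits with 1 library omitted, those without PCOS-MV replicate 3 or 4 (adjusted p at most 0.0982 in the others).

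Tk1 was higher in every PCOS-MV library than in every PCOS library, by 1.46 ± 0.42 on the log2 scale (limma adjusted p = 0.0363, exact permutation p = 0.0286). Without PCOS-MV replicate 3, its lowest PCOS-MV library, Tk1 was higher by 1.89 ± 0.25, a larger change that follows from that low value. Without any 1 of the other 7 libraries the call was lost (adjusted p at most 0.0866). Aurkb was higher by 0.48 ± 0.15 (limma adjusted p = 0.0473, exact permutation p = 0.0571), where PCOS-MV replicate 3 lay within the PCOS range, and the call held in 2 of the 8 fits with 1 library omitted (adjusted p at most 0.117 in the others). Of the 21 G2 and M phase genes, 20 had a positive log2 fold change, with a median of 0.24, and 1 was called. Among all 13430 genes tested, 7207 had a positive log2 fold change and 14.3% were called higher. The G2 and M phase genes rose and fell together in the libraries, so the count of signs is not a count of independent results. Among the genes that had fallen in the first comparison, Ccnd1 differed by 0.06 (95% interval -0.30 to 0.42), Cdk6 by 0.11 (-0.06 to 0.29) and Cenpe by -0.02 (-0.31 to 0.27) between PCOS-MV and PCOS, and none of these was called. Cdk1 differed by 0.44 (-0.01 to 0.89), Cenpf by 0.32 (-0.06 to 0.71) and Aurka by 0.27 (-0.11 to 0.65), again without a call.

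The third comparison, PCOS-MV against control, asks what remained different after treatment. By limma 0 of the 45 cell cycle genes were called, against 0.00745% of all genes tested, which was 1 gene, while 5 of the 45 had an unadjusted p under 0.05, as did 1142 of the 13430 genes. The 5 were Ccnd1, Cdk6, Cdkn1b, Aurkb and Cenpe. Cdk6 was lower in every PCOS-MV library than in every control library, with a log2 fold change of -0.30 (95% interval -0.50 to -0.11, limma adjusted p = 0.497, exact permutation p = 0.0286). Aurkb was likewise lower in every PCOS-MV library, with a log2 fold change of -1.09 (interval -2.03 to -0.14) and, without Control replicate 3, of -0.64 (limma adjusted p = 0.592). Ccnd1 differed by -0.66 with an interval of -1.12 to -0.20 and Cenpe by -1.04 with an interval of -1.78 to -0.30. For Cdkn1b the difference was 0.48, with an interval of 0.05 to 0.91. A p that missed the threshold does not show that the groups were alike, and for Cdkn1a the interval of -0.14 to 1.44 lay around 0.65.

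The PCOS libraries also differed from the others in cell type markers, and these values stand beside the changes above. Among all genes tested, 11.9% were called higher and 15.6% lower in PCOS than in control. In PCOS-MV against PCOS the shares were 14.3% higher and 11.4% lower. Granulosa cell markers summed to 963 to 1337 FPKM in controls, 1554 to 2242 FPKM in PCOS rats and 849 to 1464 FPKM in PCOS-MV rats, and 5 of 10 were called higher in PCOS than in control. Luteal cell markers summed to 4348 to 8032 FPKM, 1849.9 to 3498 FPKM and 2985 to 6952 FPKM in the same order, and 4 of 7 were called lower and 1 higher in PCOS. Theca cell markers summed to 113 to 152 FPKM in controls, 1695 to 3182 FPKM in PCOS rats and 107 to 192 FPKM in PCOS-MV rats, and of 5 measured 3 were called higher and 1 lower in PCOS. Endothelial markers summed to 111 to 139 FPKM, 67.4 to 84.0 FPKM and 95.03 to 138 FPKM, with 5 of 6 called lower and 1 higher in PCOS. Leukocyte markers summed to 73.9 to 96.9 FPKM, 98.3 to 113 FPKM and 78.2 to 106 FPKM, with 4 of 8 called higher in PCOS. Oocyte markers (15.8 to 27.1 FPKM, 15.04 to 17.9 FPKM and 17.8 to 27.7 FPKM) and smooth muscle markers (328 to 888 FPKM, 450.2 to 573 FPKM and 324 to 665 FPKM) had no gene past the limma threshold. In PCOS-MV against PCOS, 4 granulosa and 4 theca cell markers were called lower and 4 endothelial markers higher, with 2 luteal cell markers higher and 1 lower, and 1 leukocyte marker higher and 3 lower. None of these lists had a gene at 0 in every library. The part of cell composition in the changes of the cell cycle genes was not tested.

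Of 80 further cell cycle genes, 79 were measured and 77 tested. Of the 77, limma called 7 lower (against 15.6% of all genes) and 0 higher (against 11.9%) in PCOS than in control. An unadjusted limma p under 0.05 was found for 15 of the 77 and for 5285 of all 13430 genes. In PCOS-MV against PCOS, 6 of the 77 were higher and 2 lower (against 14.3% and 11.4% of all genes). Cdc25a, the phosphatase that activates Cdk2 and Cdk1, was at 10.3, 10.6, 9.76 and 12.2 FPKM in controls, 4.88, 5.17, 5.31 and 5.45 FPKM in PCOS rats and 12.03, 11.8, 15.1 and 10.8 FPKM in PCOS-MV rats. The PCOS libraries lay below all others, with a log2 fold change of -0.91 ± 0.08 against control (limma adjusted p = 0.000113), and PCOS-MV was higher than PCOS by 1.11 ± 0.10 (limma adjusted p = 0.000259).

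Gmnn, geminin, the inhibitor of the replication factor Cdt1, was at 7.85, 6.31, 3.46 and 4.29 FPKM in controls, 2.43, 3.16, 2.07 and 2.56 FPKM in PCOS rats and 7.01, 5.81, 5.74 and 4.70 FPKM in PCOS-MV rats. All PCOS libraries lay below all others, and the log2 fold changes were -0.82 ± 0.21 against control and 0.94 ± 0.13 for PCOS-MV against PCOS (limma adjusted p = 0.0208 and 0.00154). Cdkn2b, the p15 inhibitor of Cdk4 and Cdk6, was at 4.08, 5.40, 63.2 and 69.4 FPKM in controls, 8.62, 0.586, 2.53 and 1.05 FPKM in PCOS rats and 33.1, 5.93, 130.2 and 53.1 FPKM in PCOS-MV rats. It varied widely within each group. The PCOS-MV group overlapped the PCOS group through PCOS-MV replicate 2, and the log2 fold change was 3.47 ± 0.89 in PCOS-MV against PCOS (limma adjusted p = 0.0219, exact permutation p = 0.0571).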

How the data were processed

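RNA from the ovaries of 12 rats was sequenced in 1 library per rat, with paired-end reads from an NEBNext Ultra RNA kit. The authors filtered the reads, mapped them and turned gene counts into the deposited FPKM by gene length and library total. The paper's methods name HISAT2 and featureCounts, whereas the submitters' processing notes list STAR 2.5.1b and HTSeq 0.6.0, and the genome build and the strand setting are not given in the sources used here. The deposited table repeats each gene on 26928 transcript lines, and 1 line was kept for each of 19730 genes, since the lines of a gene differed by 0. Columns named MG were taken as the PCOS-MV group. The deposited fold changes and p-values of the authors' own comparisons were not used here.

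Libraries were assigned to groups by their titles and treatment labels. The files hold FPKM and not counts, so limma 3.58.1 (R 4.3.3, eBayes with a variance trend) was applied to log2(FPKM + 1), 4 libraries against 4, for 13430 genes whose mean reached 1 FPKM, with Benjamini-Hochberg adjustment over all of them and a threshold of 0.05. Single genes were also compared with an exact two-sided permutation test over the 70 divisions of 8 libraries. The paper gives 4 rats per group for its sequencing, as analysed here, but its methods name a smaller number of replicates for its own differential test. Read depth is unknown, and steps between low values gave relative depth only, with 3.39% to 5.14% of pairs on the step against 0.113% to 0.156% between steps. No pair of libraries held identical values (0 pairs). The limma step was tested on simulated data with the groups of PCOS against control (13430 genes, 5 sets, 200 changed by 1.5 on the log2 scale), where 92.3% of the changed genes were recovered and 5.33% of calls were false. The simulated noise was independent from gene to gene, and the changed genes were drawn from the better expressed ones. The cell cycle genes moved together, and most of their called changes were smaller than 1.5. These rates therefore do not describe the calls reported here.

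The cell cycle genes, their roles, the further cell cycle list and the marker lists were chosen with earlier results of these data known. Values in all libraries are given for genes called in PCOS against control or in PCOS-MV against PCOS and for the 2 genes of highest mean in each role. Of the further list, the 3 called genes of largest change in each of these comparisons are named, except 1 gene that is not reported here. Promoters came from RefSeq (GRCr8). Alternatives were a pseudocount of 0.1, no filter, 1 model for all 12 libraries, no variance trend, libraries rescaled by their median ratio, the replicate number as a block and each library left out in turn. Tables were prepared with Python 3.11.15 and pandas 2.3.3 and drawn with matplotlib 3.10.9.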

Additional observations from a re-analysis of the deposited data

Results flagged for a closer look

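A sample far from the others of its group was looked for in each of the 46 genes and 3 groups, 138 groups of 4 libraries in all. Chance flags about 1 in 20 groups, which is 6.9 here, and 3 were found. Aurkb in Control replicate 3 was at 28.8 FPKM, and the other control libraries were at 6.57 to 9.29 FPKM. In the same library Tmem107, a gene of primary cilia further along the same chromosome, was at 8.60 FPKM against 3.84 to 4.09 FPKM in the other control libraries, whereas Ctc1 and Borcs6, the nearest neighbours of Aurkb, were at 17.5 and 12.4 FPKM against 18.3 to 19.1 FPKM and 10.5 to 14.2 FPKM. The epithelial and ciliated markers of this library were also high, and their part in the Aurkb value was not tested. Cdk2 in PCOS replicate 1 was at 11.3 FPKM, and the other PCOS libraries were at 8.82 to 8.87 FPKM. Mcm2 in PCOS replicate 3 was at 8.55 FPKM, and the other PCOS libraries were at 10.7 to 10.8 FPKM.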

How the results depend on the processing

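The number of cell cycle genes called lower in PCOS than in control was 9, and it was 5 with no filter on low values. The number called higher in PCOS-MV than in PCOS was 5, and it was 2 with no filter and 3 with 1 model for all 12 libraries. Without 1 library the first count ranged from 3 to 26 and the second from 2 to 11, the highest counts coming without Control replicate 3 and without PCOS-MV replicate 3. PCOS replicate 3, the lowest PCOS library for 30 of the 34 S phase and G2 and M phase genes, stayed in both of these fits. The lowest counts were 3 without PCOS replicate 4 for the first and 2 for the second without PCOS replicate 1, 3 or 4 or PCOS-MV replicate 1 or 2. Other settings kept both counts within 1.5 times. Replicate numbers were not taken to pair the libraries, since in no comparison did every same-numbered pair correlate over 0.1. The correlation of same-numbered deviations over all genes tested was -0.03 to 0.02 in the first comparison, 0.04 to 0.17 in the second and -0.05 to 0.22 in the third. In the second all pairs but that of replicate 4 were over 0.1. Of the 34 S phase and G2 and M phase genes, 32 were lowest in replicate 3 of the control group, 30 in that of the PCOS group and 33 in that of the PCOS-MV group. A pairing in these genes alone was not tested. With the replicate block the counts were 9, 6 and 0, but not all calls were of the same genes. In the first comparison 1 inhibitor was called instead of 2, Cdkn1b having an adjusted p of 0.0556, and 6 G2 and M phase genes instead of 5, although Cenpf had an adjusted p of 0.0810. Cdk1 was called in the second (adjusted p = 0.0244). Cell cycle genes at an unadjusted limma p under 0.05 went from 13 to 28 in the first comparison and from 5 to 13 in the second. Of these, G2 and M phase genes went from 8 to 20 in the first. Over all 13430 genes tested the counts went from 5285 to 4921 in the first and from 5173 to 5123 in the second. Of all genes, 1666 were called lower in the first comparison with the block, instead of 2090, and 1706 higher in the second, instead of 1918. In PCOS-MV against control 0 genes were called under all settings run, and in the first comparison 0 were called higher and in the second 0 lower. Single genes were followed under other settings if called in the first or second comparison or among the 2 of highest mean in their role. Of 756 values over the 3 comparisons, 683 kept their direction and side of the threshold, 65 lost the call, 8 gained one and 0 reversed. Most of these values had no call to lose, since 9, 5 and 0 genes were called in the 3 comparisons. Of the 65 lost calls, 51 came with 1 library omitted. Rescaling the libraries by their median ratio changed the sign of 0 of 45 genes. The causes of these shifts were not tested. FPKM without read counts give no counting error, and 4 rats per group limit what small differences can be seen.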

Other observations

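Other genes of the further cell cycle list that passed the test were Rb1, Anln, Racgap1 and Kif23 in PCOS against control and Cks1b, Wee1, Rb1 and Cdc25c in PCOS-MV against PCOS. Rb1, the retinoblastoma protein that D cyclin kinases phosphorylate, was at 16.2, 19.4, 20.4 and 19.9 FPKM in controls, 12.4, 9.58, 9.94 and 9.99 FPKM in PCOS rats and 15.1, 13.8, 21.4 and 12.96 FPKM in PCOS-MV rats, and all PCOS libraries lay below all others. Its log2 fold change was -0.80 ± 0.10 in PCOS against control (limma adjusted p = 0.000756) and 0.53 ± 0.15 in PCOS-MV against PCOS (limma adjusted p = 0.0354). Anln, Racgap1 and Kif23, which act in the division of the cytoplasm, had log2 fold changes of -0.78, -0.69 and -0.60 in PCOS against control (limma adjusted p = 0.0281, 0.00906 and 0.037). Cks1b, a small partner of Cdks, and Wee1, the kinase that restrains Cdk1, were lower in PCOS-MV than in PCOS, with log2 fold changes of -0.81 ± 0.25 and -0.58 ± 0.16 (limma adjusted p = 0.0472 and 0.0259). For Cks1b, PCOS-MV replicate 4 (11.4 FPKM) lay within the PCOS range of 10.1 to 12.5 FPKM (exact permutation p = 0.114). Cdc25c, a phosphatase that activates Cdk1, was higher by 0.42 ± 0.11 (limma adjusted p = 0.0269). Without Control replicate 3, 25 of the 77 genes were lower in PCOS than in control, against 16.9% of all genes. Without PCOS-MV replicate 3, 13 were higher in PCOS-MV than in PCOS, against 14.4% of all genes. In that fit 0 of the 77 were lower, against 1420 of all 13430 genes, so the calls of Cks1b and Wee1 were lost.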
